A study of Mus musculus with 4 samples.

Results

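Gene deserts are long stretches of chromosome with no protein-coding gene, and 2548 of the 9709 peaks of one IgD chromatin immunoprecipitation (ChIP-seq) list and 6800 of the 38270 peaks of a second list lay in them. A peak was placed in a desert when its summit, the base with the highest signal, lay on chromosomes 1 to 19 and more than 250 kb from every protein-coding RefSeq gene, on mouse build mm10 (GRCm38). The rule used positions only and no measured height or width. The whole lists, with the remaining chromosomes and sequences, held 11375 and 40628 peaks. The material was pro-B cells of wild-type mice, sorted from bone marrow as B220+ IgM- CD43+ cells, with no strain, age or treatment stated. Of the 4 libraries, 2 were made with an antibody to mouse IgD and 2 with mouse IgG as the isotype control, and the series title asks about nuclear IgD and E2f3, a transcription factor of the cell cycle. Each IgD library had been compared with the IgG library of its number, which gave the lists called pair 1 and pair 2 here. Whether the mice behind the pairs were the same is not stated in the labels, and peak lists do not allow a check of the cells against pro-B markers. With 1 list per pair no test over samples could be made, so every comparison below is a description. Its 95% intervals (Wilson for shares, exact Poisson for counts) cover counting error and treat peaks as independent of each other.

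Large gene deserts often flank genes for transcription factors of development and for adhesion molecules of nerve cells. Some hold enhancers that act on a gene at a great distance, and many hold genes for long non-coding RNAs (lncRNAs) or short microRNAs. In lymphocytes, antigen receptor loci also look like deserts when only protein-coding genes are counted, because annotations put their many variable segments in a class of their own.

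The only sequences to show for these peaks are those of non-coding genes inside the deserts, since no genome sequence was used. RefSeq (GRCm38.p6) gave 772 windows from 250 bases before to 50 bases after a gene start that lay in a desert, from 673 genes, and their median GC content was 43.7% against 52.7% over all windows. Desert peaks of pair 1 reached into the windows of 18 of these genes and those of pair 2 into the windows of 23, all of them lncRNA genes. For comparison, desert peaks covered 5.96 Mb in pair 1 and 9.33 Mb in pair 2, beside 392 Mb of desert. Whether the counts differ from what this coverage would give was not tested. Those of 4 genes, Gm29398, Gm40604, Gm40662 and Gm33501, were met by desert peaks of both lists. The window of Gm29398, between Brinp3 and Pla2g4a, is shown because narrow peaks of both lists ended in it. Capitals mark the 80 bases under both peaks (chr1:149449923-149450222, minus strand).
Gm29398: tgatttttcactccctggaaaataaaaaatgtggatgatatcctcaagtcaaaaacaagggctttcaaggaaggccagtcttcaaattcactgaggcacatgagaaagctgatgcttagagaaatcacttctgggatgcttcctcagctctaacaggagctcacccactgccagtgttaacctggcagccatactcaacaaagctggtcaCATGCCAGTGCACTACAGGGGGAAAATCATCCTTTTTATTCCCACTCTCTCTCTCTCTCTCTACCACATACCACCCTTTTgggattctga
The window of Gm33501, between Fbxo8 and Hand2, lay wholly under a peak of each list and is shown for its sequence. Capitals mark the TATA box letters (TATAAA, searched on both strands), which 13.6% of all 32817 RefSeq windows hold (chr8:56888754-56889053, minus strand).
Gm33501: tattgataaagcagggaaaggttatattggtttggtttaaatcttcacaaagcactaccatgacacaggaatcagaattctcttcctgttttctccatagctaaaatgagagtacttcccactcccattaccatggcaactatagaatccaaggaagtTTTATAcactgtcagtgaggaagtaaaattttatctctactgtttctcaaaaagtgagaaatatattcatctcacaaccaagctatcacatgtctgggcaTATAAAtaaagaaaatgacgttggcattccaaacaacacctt
The windows of 9530026F06Rik, between Icos and Pard3b, and of Gm41991, between 1700008P02Rik and Pkia, are shown because a summit lay inside them, of pair 2 and of pair 1. Capitals mark the bases within 10 of the summit (chr1:61378182-61378481 and chr3:7042550-7042849, both on the plus strand).
9530026F06Rik: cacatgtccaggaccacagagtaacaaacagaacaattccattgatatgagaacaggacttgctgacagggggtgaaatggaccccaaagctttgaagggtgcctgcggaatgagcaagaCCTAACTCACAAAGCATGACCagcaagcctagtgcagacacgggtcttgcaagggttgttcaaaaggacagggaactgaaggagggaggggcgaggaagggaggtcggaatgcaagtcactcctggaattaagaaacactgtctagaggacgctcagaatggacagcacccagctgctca
Gm41991: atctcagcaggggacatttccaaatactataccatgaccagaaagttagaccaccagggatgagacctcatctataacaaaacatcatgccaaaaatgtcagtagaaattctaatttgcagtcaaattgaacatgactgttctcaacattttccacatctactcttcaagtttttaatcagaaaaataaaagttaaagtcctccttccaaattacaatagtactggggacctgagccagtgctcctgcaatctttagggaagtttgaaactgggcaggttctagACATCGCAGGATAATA

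The fold enrichment of a peak is the ratio of IgD fragments at its summit to the local background, as deposited by the authors. Numbers of fragments were solved from the fold and p-value and assume unscaled IgD fragments. At Gm29398 the pair 1 peak had a fold of 3.20, from 11 fragments (5.49 to 19.7), and the pair 2 peak one of 4.60, from 16 fragments (9.15 to 26.0). Both numbers of fragments at Gm29398 are small, and the intervals of the 2 lists overlap. The pair 2 summit there, at 149449713, lay outside the window. The peaks over Gm33501 had folds of 3.09 and 5.97 and widths of 4275 bp and 64012 bp. Their summits, at 56890849 and 56921838, lay outside its window, so these folds do not describe the gene start itself. The pair 2 peak at the start of 9530026F06Rik was 577 bp wide with a fold of 5.72 (21 fragments, 13.0 to 32.1), and the pair 1 peak at Gm41991 was 4239 bp wide with a fold of 5.33 (19 fragments, 11.4 to 29.7). In all, 2 summits of pair 1 and 4 of pair 2 lay inside a window. The windows of Gm29398, 9530026F06Rik and Gm41991 held none of the TATA box, the letters CCCNNGGG of EBF sites, the letters TTCCCGCC of E2F sites or CACGTG, the letters bound by Myc. Over all RefSeq windows these letters stood in 13.6%, 13.7%, 2.19% and 7.15%.

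Of 41 microRNA hairpins in deserts, none lay under a pair 1 peak. Pair 2 peaks covered Mir125b-2, between Usp25 and Cxadr on chromosome 16, and most of Mir344c, between Gm51483 and Ndn on chromosome 7. Desert peaks covered 5.96 Mb in pair 1 and 9.33 Mb in pair 2, beside 392 Mb of desert. Counts this small say little about microRNAs as a class, and the part of coverage was not tested. The mature RNAs are shown with the seed, the bases 2 to 8 that pair with target transcripts, in capitals (miR-125b at chr16:77646279-77646300 and chr16:77646318-77646339, plus strand, and miR-344c at chr7:61837323-61837345 and chr7:61837363-61837385, minus strand).
miR-125b-5p: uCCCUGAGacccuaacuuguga
miR-125b-2-3p: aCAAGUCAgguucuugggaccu
miR-344c-3p: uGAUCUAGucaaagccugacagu
miR-344c-5p: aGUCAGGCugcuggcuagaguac
The peak at Mir125b-2 was 542 bp wide, its summit at 77646295 fell inside the miR-125b-5p sequence, and its fold was 3.54 from 15 fragments (8.40 to 24.7). The miR-125b family is known for its part in blood cell development. The peak at Mir344c had a fold of 4.33, also from 15 fragments, at a summit outside the hairpin, 546 bp from miR-344c-3p. The seeds of these RNAs differ from each other. Neither peak was found in pair 1.

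Desert peaks made up 26.2% (25.4 to 27.1) of the pair 1 peaks on these chromosomes and 17.8% (17.4 to 18.2) of the pair 2 peaks. The deserts with a coding gene on each side numbered 585 and held 392 Mb, which was 16.4% of the sequence between the outermost coding genes. Only 5 desert peaks of pair 1 and 15 of pair 2 lay beyond the outermost coding gene of a chromosome. Pair 1 had 6.48 peaks per Mb of desert (6.23 to 6.74) and 3.57 outside deserts (3.48 to 3.65), a ratio of 1.82. Pair 2 had 17.3 per Mb (16.9 to 17.7) and 15.7, a ratio of 1.10. Both lists were thus denser in deserts than outside, pair 1 by far the more. Without the 20 deserts that were fullest in the other list the ratios were 1.61 in pair 1 and 1.04 in pair 2. Without the 20 fullest of the same list they were 1.11 and 0.97, a drop that leaving out the fullest deserts brings by construction.

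Density did not grow steadily with distance from genes. In pair 1 it went from 2.69 peaks per Mb inside genes to 6.02 at 100 to 250 kb from a gene and 8.23 at 250 to 500 kb, then came to 5.54 at 500 kb to 1 Mb and 3.46 beyond 1 Mb. In pair 2 the same classes had 15.3, 16.8, 19.2, 17.0 and 12.4 peaks per Mb. Both lists had their highest density just inside the desert limit, and at over 1 Mb pair 2 was sparser than anywhere nearer to genes. With the limit set at 500 kb, the ratio of desert to other density was 1.22 in pair 1 and 0.97 in pair 2.

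**Figure D1:**
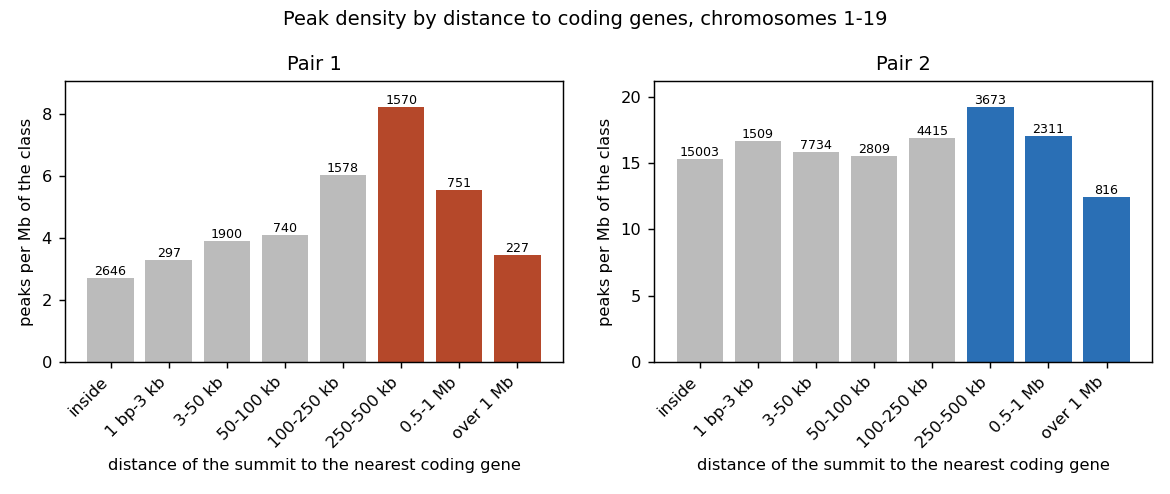
Peaks per Mb of sequence (vertical axis) by distance of the summit to the nearest protein-coding gene (horizontal axis), with the number of peaks over each bar, pair 1 left and pair 2 right. Coloured bars are the 3 desert classes. Both lists are densest at 250 to 500 kb, with 8.23 and 19.2 peaks per Mb.

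The desert share was higher in pair 1 than in pair 2 on 17 of the 19 chromosomes. It passed the share of sequence in deserts on 17 chromosomes in pair 1 and on 12 in pair 2. Chromosome 11 had 12.9% of its sequence in deserts but 37.8% of its pair 1 peaks (32.7 to 43.2), the largest ratio of any chromosome. Chromosome 4 had the highest share, 38.4% of pair 1 peaks (35.1 to 41.9) on 17.1% of the sequence. The exceptions were chromosome 5, with 12.2% in pair 1 and 17.8% in pair 2, and chromosome 16, with 14.1% and 22.7%. On chromosome 16, pair 1 had only 26 desert peaks and its interval ran from 9.83 to 19.9%.

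**Figure D2:**
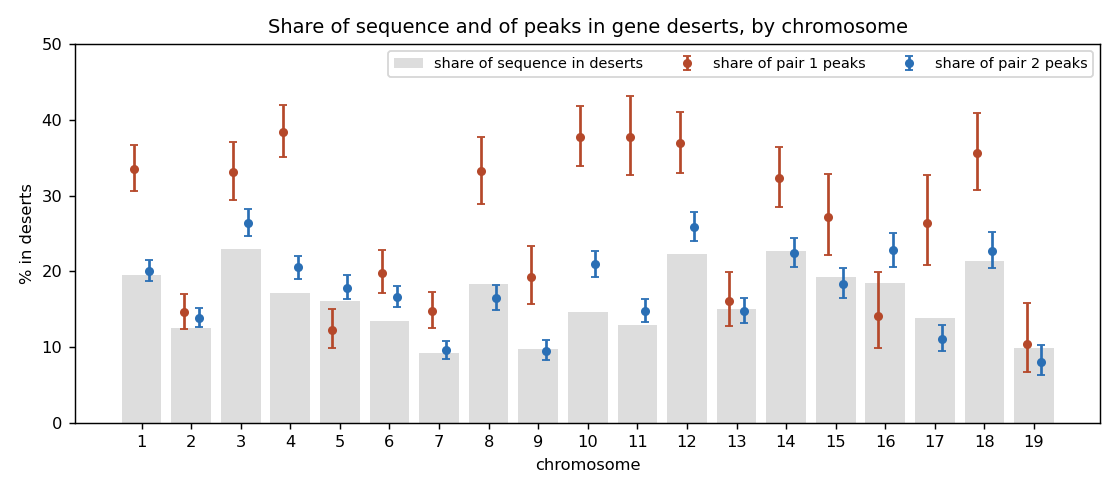
Share of sequence (grey bars) and of peaks (points with 95% Wilson intervals, pair 1 red and pair 2 blue) in deserts, in percent, for chromosomes 1 to 19. The pair 1 points of chromosomes 4, 10 and 11 stand well above their bars, at 38.4, 37.8 and 37.8%, and those of chromosomes 5 and 16 below theirs.

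The longest deserts held few peaks for their length. A desert is measured here without the 250 kb next to the gene at each end. The median desert was 371 kb long, and the longest, 4.04 Mb on chromosome 14 between Pcdh20 and Pcdh9, genes for adhesion proteins of nerve cells, held 3 peaks of pair 1 (0.619 to 8.77) and 37 of pair 2 (26.1 to 51.0). The 20 longest deserts made up 16.8% of desert length and held 7.04% of the desert peaks between coding genes in pair 1 and 13.4% in pair 2. Their density was 2.72 peaks per Mb against 7.25 in the other deserts for pair 1, and 13.8 against 18.004 for pair 2. Of these 20, 17 in pair 1 and 16 in pair 2 were below the density of all deserts together.

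Of the 20 longest deserts, 3 held no pair 1 peak, which allows up to 3.69 peaks at 95%. They were Zeb2 to Acvr2a, Cdh6 to Cdh9 and 4931417E11Rik to Ctnna2, and pair 2 had 34, 29 and 47 peaks there. Zeb2 encodes a repressor of transcription and Acvr2a an activin receptor, while Cdh6 and Cdh9 are cadherins and Ctnna2 a catenin of nerve cells. The fullest of the 20 longest in pair 1 was Celf4 to Pik3c3 on chromosome 18, with 37 peaks (26.1 to 51.0) beside 52 in pair 2. The fullest in pair 2 was Cntnap5b to Cdh20 on chromosome 1, with 86 peaks (68.8 to 106) beside 14 in pair 1. The peaks furthest from any coding gene lay on chromosome 14, at 1965 kb in pair 1 (between Olfm4 and Pcdh17, fold 2.93) and at 2263 kb in pair 2 (between Pcdh20 and Pcdh9, fold 3.51).

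Peaks were spread unevenly over deserts, and more so in pair 1. No pair 1 peak lay in 354 of the 585 deserts, which together held 142 Mb, while 79 deserts with 6.59 Mb had no pair 2 peak. Both lists had peaks in 226 deserts and neither in 74. Pair 2 alone had peaks in 280 and pair 1 alone in 5. The 20 fullest deserts of pair 1 held 43.2% of its desert peaks on 6.78% of desert length, and those of pair 2 held 21.4% on 10.5%. The lists shared 6 of their 20 fullest and 8 of their 20 densest deserts. Over the 394 deserts of 200 kb or more, the peaks per Mb of the lists had a Spearman rho of 0.46 and a Pearson r of 0.44. This is given as a description, since the points share the cell type, the genome and the lengths of the deserts.

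**Figure D3:**
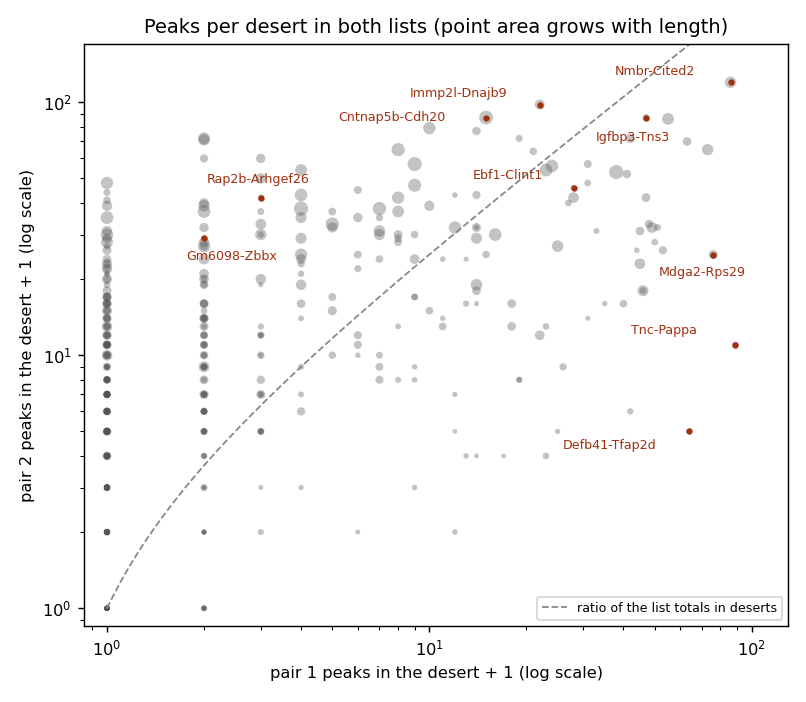
Peaks of pair 1 (horizontal) and of pair 2 (vertical) in each of the 585 deserts, each plus 1 on a log scale, with point area growing with desert length. The dashed line is the ratio of the list totals in deserts, 2.67. Nmbr to Cited2 is high in both lists, with 85 and 119 peaks, while Tnc to Pappa and Defb41 to Tfap2d are far to the right and low.

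In 45 deserts pair 1 had more peaks than pair 2, although its list was the shorter. The fullest desert of pair 1, between Tnc, a matrix protein, and Pappa, a secreted protease (chromosome 4, 64297016 to 64874173), held 88 pair 1 peaks (70.6 to 108) and 10 pair 2 peaks (4.80 to 18.4). All 88 formed 1 chain over 435 kb, a chain being 5 or more peaks with summits at most 20 kb apart. Between the defensin gene Defb41 and the transcription factor gene Tfap2d on chromosome 1, pair 1 had 63 peaks (48.4 to 80.6) in 338 kb, its highest density of deserts of 200 kb or more at 186 per Mb, and pair 2 had 4 (1.09 to 10.2). Between Mdga2 and Rps29 on chromosome 12 the counts were 75 (59.0 to 94.0) and 24 (15.4 to 35.7), and between Dnaaf6 and Khdrbs2 on chromosome 1 they were 41 (29.4 to 55.6) and 5 (1.62 to 11.7). These deserts were named for their pair 1 counts. Over all deserts the intervals lay apart with pair 1 the higher in 12 (2.05%) and with pair 2 the higher in 142 (24.3%). At a -log10 q of at least 5, the counts in these 4 were 8 and 1, 9 and 2, 11 and 8, and 6 and 1, with intervals that overlapped in each.

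Other deserts had many more peaks, or much more covered sequence, in pair 2 than in pair 1. Between Rap2b and Arhgef26 on chromosome 3, genes of small GTPase signalling, the counts were 2 in pair 1 and 41 in pair 2. Crbn to Lrrn1 on chromosome 6 and Gm6098 to Zbbx on chromosome 3 each had 1 and 28. Between Gnpda2, an enzyme of amino sugar metabolism, and Gabrg1, a GABA receptor subunit (chromosome 5, 69842333 to 70501046), pair 2 had 71 peaks (55.5 to 89.6) that covered 54.3% of the desert, and pair 1 had 18 (10.7 to 28.4) that covered 2.59%. In Obox7 to Obox2, flanked by homeobox genes on chromosome 7, pair 2 covered 88.1% with 31 peaks and pair 1 covered 5.66% with 13. In Gnpda2 to Gabrg1 and Obox7 to Obox2, pair 1 still had 27.3 and 58.3 peaks per Mb, against 6.48 in all deserts. Of the 2 lists, pair 2 was the longer, with 2.67 times the desert peaks of pair 1.

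Some deserts were marked along most of their length in both lists, and another, Nmbr to Cited2, had many peaks but less coverage. The small desert between 1700008P02Rik and Pkia, a protein kinase inhibitor gene (chromosome 3, 6870444 to 7116603), was covered to 96.3% by pair 1 with 11 peaks and to 80.6% by pair 2 with 42. Between Fbxo8 and Hand2, a transcription factor gene of heart and limb, the lists covered 64.4% and 65.3% of 227 kb. Between Igfbp3, a carrier of insulin-like growth factors, and Tns3, a protein of focal adhesions (chromosome 11, 7465499 to 8181651), 46 pair 1 peaks (33.7 to 61.4) covered 62.6% and 86 pair 2 peaks (68.8 to 106) covered 53.7%. The desert of Nmbr, a neuropeptide receptor gene, and Cited2, a co-regulator of transcription (chromosome 10, 15021459 to 17473227), was the fullest of pair 2 with 119 peaks (98.6 to 142) and the second of pair 1 with 85 (67.9 to 105), which covered 18.4% and 22.1%. The number of peaks and the length covered therefore ranked deserts differently.

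**Figure D4:**
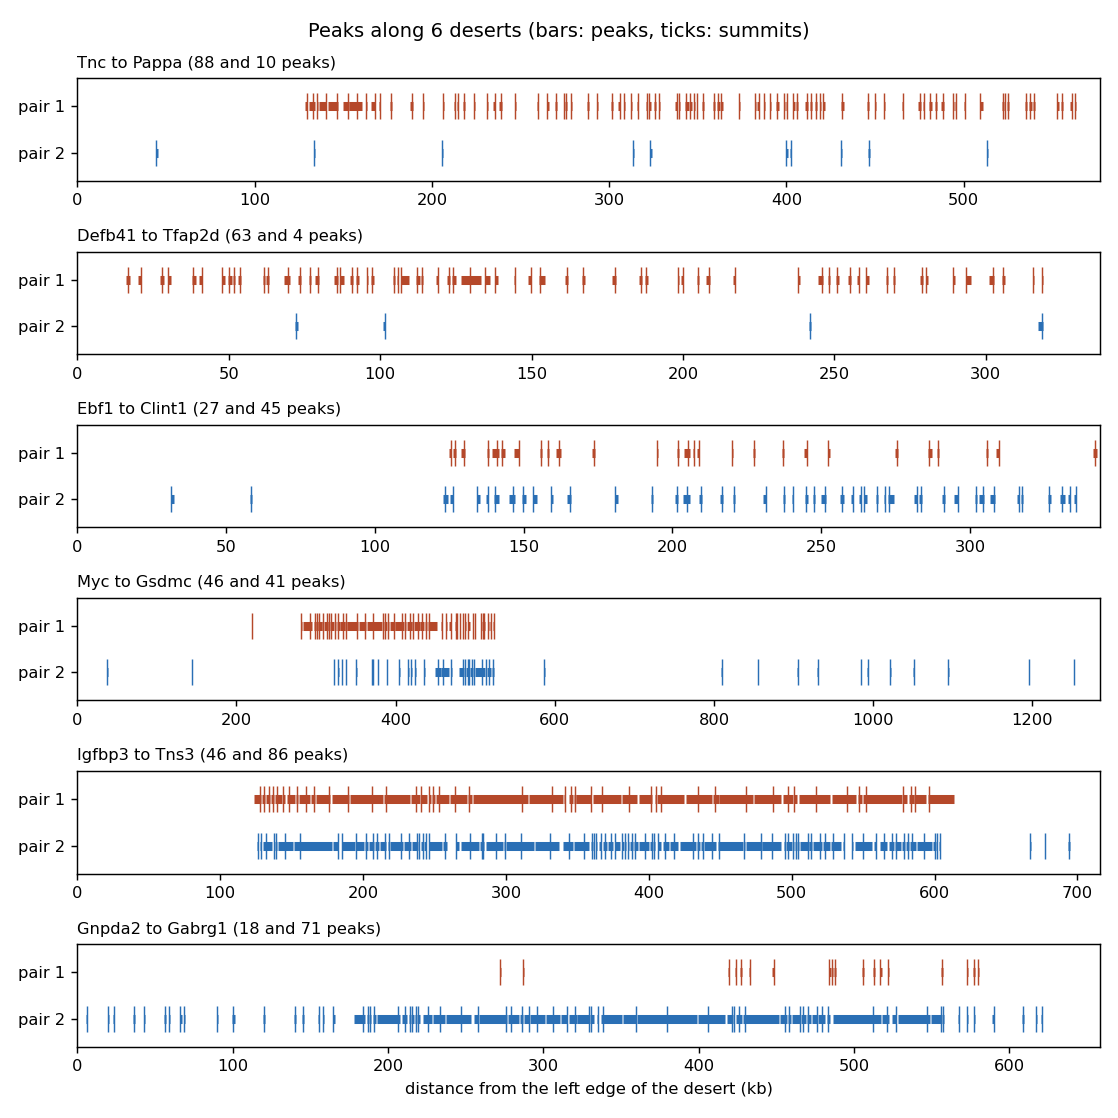
Peaks (bars) and summits (ticks) of pair 1 (red) and pair 2 (blue) along 6 deserts chosen after their counts were seen, by distance from the left edge of the desert in kb. Tnc to Pappa and Defb41 to Tfap2d are filled mainly by pair 1. In Ebf1 to Clint1, Myc to Gsdmc and Igfbp3 to Tns3 the runs of both lists lie over the same stretch. In Gnpda2 to Gabrg1 most of the run is in pair 2.

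Of 25 early B-lineage transcription factor genes, 10 flanked a desert (40.0%, against 5.04% of all coding genes), on 12 deserts with 8.21 Mb. These held 91 pair 1 peaks, or 11.1 per Mb (8.93 to 13.6), and 169 pair 2 peaks, or 20.6 per Mb (17.6 to 23.9), against 6.48 and 17.3 in all deserts. Almost all pair 1 peaks lay in 3 of the 12. Beside Ebf1, which commits cells to the B lineage, the 344 kb desert toward Clint1 (chromosome 11, 45258097 to 45601943) held 27 pair 1 peaks (17.8 to 39.2) and 45 pair 2 peaks (32.8 to 60.2), at 78.5 and 131 per Mb, among the 10 densest of both lists. Beside Myc, a driver of cell growth, the desert toward Gsdmc (chromosome 15, 62240362 to 63525970) held 46 and 41 peaks. Of those, 45 pair 1 peaks formed a chain of 243 kb, with 27 pair 2 summits inside its span. Beside Ets1, toward Kirrel3 on chromosome 9, the counts were 17 and 12.

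The other 9 of these deserts held 1 pair 1 peak in all. Bcl11a, Sox4, Runx1, Foxo1, Tcf4 and both sides of Mef2c had none in pair 1, with 19, 5, 3, 3, 8, 23 and 3 in pair 2. The desert on the other side of Myc, toward A1bg, held none in pair 1 and 3 in pair 2, and that of Id2, a repressor of E proteins, held 1 and 4. Thus 8 of these 12 deserts had no pair 1 peak, near the 354 of all 585 deserts (60.5%) that had none. At a -log10 q of at least 5 the Ebf1 desert kept 4 pair 1 and 19 pair 2 peaks. None of 13 E2F family genes, E2f3 included, flanked a desert, nor did any of 10 myeloid or 6 erythroid marker genes. Of 10 T cell marker genes, Gata3 and Bcl11b did, with no pair 1 peak, as in most deserts, and with 38 and 4 peaks in pair 2. Tox, a factor of T cell development, was not among these marker genes and was chosen after its values were seen. The desert from Tox toward Car8 held 2 and 36.

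The deserts of neural adhesion and guidance genes were long and, by their pooled density, sparse. Of 200 such genes, 71 flanked a desert (35.5%), on 96 deserts with 33.8% of desert length. They held 16.0% of pair 1 peaks and 27.2% of pair 2 peaks, at 3.06 (2.77 to 3.38) and 13.9 (13.3 to 14.6) per Mb, both below the density of all deserts. Of 197 developmental transcription factor genes, 44 flanked a desert (22.3%), with 4.68 (3.79 to 5.71) and 13.5 (12.01 to 15.23) per Mb, also below. Of 178 genes for ion channels and receptors of nerve cells, 26 did, with 5.61 (4.63 to 6.74) and 19.9 (18.1 to 22.0) per Mb, and of 67 growth factor genes 9 did, with 5.97 (3.34 to 9.84) and 23.9 (18.2 to 30.7). The median pair 2 density over single deserts was 11.9 per Mb for all deserts. It was 11.2 for the adhesion genes, 10.4 for the developmental genes, 14.8 for the channel genes and 9.16 for the growth factor genes. The pooled and the median value of the growth factor genes thus lay on opposite sides of all deserts. Pair 1 peaks lay in 50 of the 96 adhesion deserts, where 231 of all 585 deserts held any. In pair 1 the median was 0.367 per Mb for the adhesion genes and 1.78 for the channel genes, above the 0 over all deserts. Their pooled pair 1 values were below that of all deserts. For the developmental and growth factor genes the pair 1 median was 0. Of 1454 smell receptor genes, which lie in dense clusters, 1 flanked a desert.

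By the median, desert peaks were about as wide as other peaks, while peaks of 5000 bp or more took a larger share in deserts in pair 2. The median width was 874.5 bp in pair 1 (other peaks 830 bp) and 802 bp in pair 2 (other peaks 765 bp). Peaks of 5000 bp or more were 229 of the desert peaks in pair 1 (8.99%, against 8.49% of other peaks) and 280 in pair 2 (4.12%, 3.67 to 4.62, against 2.43%, 2.27 to 2.61). The difference in pair 1 turned around, to -0.70 percentage points, when the desert limit was set at 100 kb. The very widest peaks lay outside deserts: the widest desert peak was 176551 bp in pair 1 and 68847 bp in pair 2, against 737286 and 729967 bp elsewhere. Peaks of 5000 bp or more made up 57.5% of the 5.96 Mb that desert peaks covered in pair 1 and 35.9% of 9.33 Mb in pair 2, against 70.7 and 43.9% for other peaks.

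The widest desert peak of pair 1 lay between Nmbr and Cited2 (chromosome 10, 15505908 to 15682458), with a fold of 7.72 from 28 fragments (18.6 to 40.5). The next were adjoining peaks of 113 and 108 kb between Api5, an inhibitor of apoptosis, and Lrrc4c, a synaptic adhesion gene, on chromosome 2 (95045544 to 95158899 and 95159786 to 95267980). The wider of these shared the highest fold of any desert peak in pair 1, 8.25 from 30 fragments (20.2 to 42.8), with a peak of 10972 bp between Igfbp3 and Tns3. The widest of pair 2 lay between Brinp3 and Pla2g4a (chromosome 1, 148325748 to 148394594), with a fold of 8.38 from 30 fragments. All 4 of these wide peaks overlapped a peak of the other list. In pair 2 the median fold of desert peaks was 4.05 under 600 bp and 6.22 at 20000 bp or more, and narrow peaks held the first 2 places by fold. The first, between Lratd1 and Trib2 (chromosome 12, 14600722 to 14601232), was 511 bp wide with a fold of 11.1 from 40 fragments (28.6 to 54.5) and met no pair 1 peak. The second, between Mdga2 and Rps29 (chromosome 12, 67712741 to 67713843), had a fold of 10.5 and met a pair 1 peak over at least 50% of both.

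The height of desert peaks was that of other peaks. The median fold was 3.46 in pair 1 and 3.78 in pair 2 for desert and other peaks alike, from a median of 13 and 14 fragments. Over the commonest background of 2.76 and 2.70 fragments these are small numbers. A -log10 q of at least 5, a stricter false discovery limit than that of the lists, was reached by 419 desert peaks of pair 1 (16.4%, where 17.2% of all pair 1 peaks reached it) and by 2553 of pair 2 (37.5%, where 38.9% of all pair 2 peaks did). Both shares were close to the background. The highest fold was lower in deserts than elsewhere, 8.25 against 23.2 in pair 1 and 11.1 against 36.5 in pair 2, in smaller sets of peaks.

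Overlap between the lists went opposite ways for the lists. In pair 1, 642 desert peaks (25.2%, 23.5 to 26.9) met a pair 2 peak over 1 bp or more, where 27.5% of all pair 1 peaks did and 28.3% of those outside deserts. In pair 2, 689 desert peaks (10.1%, 9.44 to 10.9) overlapped a pair 1 peak, where 6.23% of all pair 2 peaks did and 5.39% (5.15 to 5.65) of those outside. The density of the other list, which bears on such overlaps, was 1.10 times as high in deserts for pair 2 and 1.82 times for pair 1. The part of density in the overlap was not tested. The lower share of pair 1 turned around under stricter rules. At least 50% of both peaks was shared by 109 desert peaks (4.28%, where 3.92% of all did), and summits lay within 200 bp for 90 (3.53%, where 3.02% of all did). In pair 2 the same rules gave 108 desert peaks (1.59%, where 0.996% of all did) and 90 (1.32%, where 0.766% of all did).

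Wide peaks overlapped most. A longer peak has more bases with which to meet the rule of 1 bp, and the part of length was not tested. In pair 1, 15.1% of desert peaks under 600 bp overlapped a pair 2 peak and 90.9% (78.8 to 96.4) of those of 20000 bp or more. In pair 1, 23.4% (20.2 to 26.9) of desert peaks between 1000 and 2000 bp overlapped, against 33.7% (31.4 to 36.2) of other peaks, and 62.7% (55.5 to 69.3) against 73.3% (69.1 to 77.1) from 5000 to 20000 bp. In pair 2, desert peaks overlapped more often than other peaks in every class under 2000 bp. From 1000 to 2000 bp the values were 11.6% (9.94 to 13.4) against 6.37% (5.75 to 7.05). Among peaks under 2000 bp in both lists, desert peaks overlapped 1.59 percentage points more often than others in pair 1 and 1.64 points more often in pair 2.

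**Figure D5:**
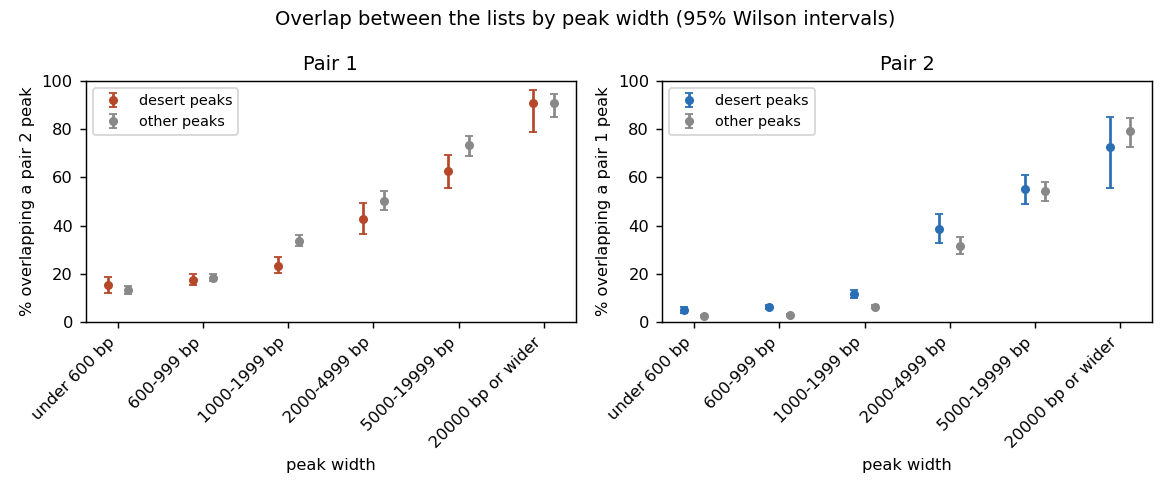
Percent of peaks that overlap a peak of the other list by at least 1 bp, by peak width, for desert peaks (coloured) and other peaks (grey), with 95% Wilson intervals. Overlap rises with width in both lists, and in pair 1 the desert and other intervals are apart between 1000 and 2000 bp, at 23.4 and 33.7%. In pair 2 they are apart the other way in that class, at 11.6 and 6.37%.

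Desert peaks lay in runs more often than other peaks. The median distance to the nearest summit of the same list was 3987.5 bp in pair 1 (other peaks 5404 bp) and 11005.5 bp in pair 2 (other peaks 16915 bp). Chains held 68.7% (66.9 to 70.5) of desert peaks in pair 1, against 57.6% of other peaks, and 33.8% (32.7 to 34.9) in pair 2, against 19.6%. Pair 1 had 81 chains wholly in deserts and 41 of them (50.6%) met a chain of pair 2, where 49.4% of its chains outside deserts did. Pair 2 had 176, of which 47 (26.7%) met one of pair 1, where 23.3% did outside. Chains in deserts thus met the other list about as often as chains elsewhere. The longest chain of pair 2 had 63 peaks over 349 kb, between Immp2l, a mitochondrial peptidase gene, and Dnajb9, a chaperone gene, on chromosome 12. Pair 1 had 12 summits in that span.

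The lists were also compared at a coarser scale. Deserts were divided into 7556 windows of 50 kb, a size set after the data were seen. Of the 287 windows with 3 or more pair 1 summits, 142 (49.5%, 43.7 to 55.2) also had 3 or more of pair 2, where 8.92% of all desert windows did. Outside deserts the values were 50% and 5.83%. In 49 of the 287 windows there was no pair 2 summit. From the other side, 142 of the 674 windows with 3 or more pair 2 summits (21.1%, 18.2 to 24.3) also had 3 or more of pair 1, where 3.798% of all desert windows did, and 421 of the 674 had no pair 1 summit.

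Of the 109 desert peak pairs that shared at least 50% of both peaks, 62 were under 2000 bp in both lists and 29 were 5000 bp or wider in both. They lay in 55 deserts, here counting stretches before the first coding gene of a chromosome. Of the pairs, 13 were in Nmbr to Cited2, 10 in Igfbp3 to Tns3 and 5 between Pfkp, a glycolytic enzyme gene, and Adarb2. The pair 2 peak of the pair next to Snurf was not itself in a desert. Their summits were a median of 443 bp apart, and 27 pairs were within 200 bp. The pair with the best mean rank of fold lay between Igfbp3 and Tns3 (chromosome 11, 7858501 to 7868059 in pair 1), with folds of 5.86 and 7.57 from 21 (13.0 to 32.1) and 27 (17.8 to 39.2) fragments. The next lay between Pfkp and Adarb2, with folds of 6.92 and 6.35, and between Ctnna3 and Reep3, with 5.33 and 7.03. The summits of the first pair were 4352 bp apart, so shared regions did not always share a summit. Fold in one list said little of fold in the other, with a Spearman rho of 0.17 and a Pearson r of 0.20 over the 109 pairs. The pairs share their regions, and they include 4 of low fold before Alkbh8 on chromosome 9.

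Non-coding genes took about their share of desert peaks. LncRNA genes covered 8.93% of desert length and held 9.34% (8.27 to 10.5) of pair 1 summits and 8.54% (7.90 to 9.23) of pair 2 summits. Gm39380, between Impg1 and Htr1b, held 24 pair 1 summits, and Gm20125, between Nmbr and Cited2, held 19 of pair 1 and 18 of pair 2. Snhg14, the long transcript of the imprinted region next to Snurf on chromosome 7, held 11 of pair 1. Antigen receptor loci were the class where the lists stood apart. They covered 1.51% of desert length and held 3 pair 1 summits (0.118%, 0.040 to 0.346) and 124 pair 2 summits (1.82%, 1.53 to 2.17). The heavy chain locus, between Adam6a and Zfp386 on chromosome 12, held 2 and 49, or 24.5 per Mb in pair 2 against 17.3 in all deserts.

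The desert peaks with the highest -log10 q lay at the start of chromosome 9, before its first coding gene Alkbh8. The pair 1 peak there (3000470 to 3002891) had a -log10 q of 227 but a fold of only 1.82, from 3578 fragments (3462 to 3697) over a background of 1963. The pair 2 peak (3001372 to 3003086) had a -log10 q of 30.2 and a fold of 1.52, from 944 fragments (885 to 1006) over 620. The background was thus high as well, and the fold was below that of the median desert peak in both lists. Of the shared pairs, 4 lay in this stretch. It is not within the deserts between coding genes and does not enter the densities above.

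The limit of 250 kb cuts through a continuous range. In pair 1 the last peak inside it lay 250116 bp from Snurf with a fold of 3.47, and the first outside lay 249987 bp from Rps6kc1 with a fold of 3.73. In pair 2 they lay 250006 bp from Htr2a (fold 2.36) and 249908 bp from Cylc2 (fold 3.78).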

How the data were processed

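ChIP-seq libraries of sorted pro-B cells (2 with anti-IgD, 2 with mouse IgG) had been fixed with formaldehyde and sheared by sonication, per the labels' protocols. The submitters' processing notes name HISAT2, MACS2, ChIPseeker and mm10 without versions or settings, and the filters for duplicates and for reads with several positions were not given in the sources used here. Groups came from the antibody in the labels, and each list sets an IgD library against the IgG library of its number. Each list has 10 narrowPeak columns. Per peak the authors deposited a fold enrichment (the ratio of IgD signal to background), a -log10 p-value, a -log10 q-value and the position of the summit in bp. The score the authors deposited was not used. Library totals were not used here, so the depth per library is unknown. Fragments at a summit were solved from fold and p, taken as (fragments + 1) / (background + 1) and a Poisson upper tail, on the assumption that IgD fragments were not scaled, and every solution lay within 0.01 of the deposited -log10 p.

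Gene positions came from NCBI RefSeq on GRCm38, with 20558 protein-coding genes on chromosomes 1 to 19 and 333 scaffold genes left out. Desert length counts positions more than 250 kb from coding genes, between 2 such genes. Assembly gaps were not removed. No genome was used, so repeats and motifs in peaks were not analysed here. Shares have Wilson intervals and counts exact Poisson intervals at 95%. The deserts and genes named were the 20 longest deserts, the 10 fullest and 10 densest (200 kb or longer) of each list, the 10 highest and 10 widest desert peaks of each list, the first 10 shared pairs, flanking members of the lineage lists, and peaks next to the limit. Of the deserts so named, one is not reported here. Outside that rule, chosen after their values were seen, are the deserts of Tox and Adam6a, the chains and the windows of 50 kb. The members, gene lists and rules were chosen with earlier results of these data known. Alternatives were other desert limits, all RefSeq genes, a stricter q, other overlap rules and equal list lengths. Functions were tested on simulated data. The tools were scipy 1.17.1, numpy 2.4.6, pandas 2.3.3 and matplotlib 3.10.9 under Python 3.11.15.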

Additional observations from a re-analysis of the deposited data

How the results depend on the processing

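No paired analysis was possible because each pair gives 1 list and no value per library, and leaving out a replicate would leave 1 list. Of 94 alternatives, 33 stayed within the counting interval, 53 moved and 8 turned around. With the desert limit at 100 kb and 500 kb, desert peaks were 42.5 and 10.1% of pair 1 and 29.3 and 8.17% of pair 2, a difference of 13.2 and 1.90 percentage points (8.48 at 250 kb). Counting distance from all RefSeq genes, they were 1.90 and 1.33%, a difference of 0.563 points. At a -log10 q of at least 5 they were 25.1 and 17.1%, and pair 2 cut to the length of pair 1 had 16.6%, a difference of 9.62 points.

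The share of 5000 bp or more was 36.0% in pair 1 and 8.58% in pair 2 at the stricter q (5.53 and 3.62 points above other peaks), 3.26 and 0.392% with all RefSeq genes (-5.46 and -2.37 points, turned around), and 3.66% in pair 2 at 100 kb, where pair 1 turned to -0.70 points. The median fold at the stricter q was 4.79 and 4.87.

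The overlapping share of desert peaks in pair 1 and pair 2 was 4.28 and 1.59% at 50% reciprocal overlap, 3.53 and 1.32% for summits within 200 bp, 30.8 and 6.58% at the stricter q, 9.80 and 3.25% under 2000 bp, 36.7 and 36.4% at 5000 bp or more, and 12.4 and 13.3% at equal length. It was 27.0% in pair 1 at 100 kb and 8.76% in pair 2 at 500 kb. The difference from other peaks in pair 1 (-3.14 points) turned to 0.48 at 50% reciprocal overlap and 0.70 for summits. The intervals of desert and other peaks overlapped there. The difference turned to 1.59 under 2000 bp, and moved to -9.04 at 5000 bp or more and -0.93 at 100 kb. In pair 2 (4.74 points) it moved to 0.721, 0.678, 1.64 and 6.66 under the same rules, to 3.33 at the stricter q and to 2.75 at 500 kb.

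The density ratio of pair 1 (1.82) was 2.03 without the 20 longest deserts, 1.70 at the stricter q, 1.97 at 100 kb, 1.22 at 500 kb, and 1.11 and 1.61 without the 20 fullest of pair 1 and of pair 2, the last pair chosen after seeing the data. That of pair 2 (1.10) was 1.15, 1.06, and 0.97 at 500 kb (turned around), and 1.04 and 0.97 (turned around) without the fullest. The causes were not tested. The median desert peak rests on 13 or 14 fragments, which limits the precision of a typical fold, while those at the start of chromosome 9 rest on far more.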
